A study of Mus musculus with 6 samples.

Results

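The 8 genes described here encode the pore-forming alpha1 subunits of the neuronal voltage-gated calcium channels: Cacna1a, Cacna1b, Cacna1c, Cacna1d, Cacna1e, Cacna1g, Cacna1h and Cacna1i. They were taken by gene symbol from tables of 55604 Ensembl identifiers, and all 8 had enough reads to be among the 11388 genes tested. The libraries were made from brain of C57BL/6 mice, 3 after intraperitoneal injection of 4-aminopyridine (4-AP) and 3 untreated (NC). 4-AP, a blocker of voltage-gated potassium channels, served in this series to bring about status epilepticus, a prolonged seizure state. All 6 RNA samples had been digested with RNase R, which removes linear RNA and spares circles, before the libraries were built. The labels do not give the brain region, the age or sex of the mice, the dose, the time from injection to sampling, or whether each library came from its own animal. The series text calls the tissue paired without saying by what, and the main fit does not pair the libraries. Every p-value here is set against the spread among these 6 libraries only, which may be technical.

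An alpha1 subunit is a single long protein of 4 homologous domains whose pore loops together form the calcium-selective filter. P/Q, N, L and R type channels need a stronger depolarisation to open than T type channels, and they work with beta and alpha2delta subunits. T type channels open near the resting potential and support burst firing. P/Q and N type channels trigger transmitter release at nerve terminals, and L type channels in the cell body and dendrites link firing to gene expression. Inherited defects of Cacna1a in mice cause absence seizures, and T type channels of the thalamus carry the rhythm of such seizures.

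The split into these classes can be read in the coding sequence. A search of each member's longest complete coding sequence found 4 pore loops per gene. The acidic residue of the filter was glutamate in all 4 loops of Cacna1a, Cacna1b, Cacna1c, Cacna1d and Cacna1e. In the T type genes Cacna1g, Cacna1h and Cacna1i, 2 of the 4 loops carried glutamate and 2, the third and the fourth, carried aspartate. The 27 bases around the filter codon of the fourth loop are printed below from the annotated transcripts, 5′ to 3′, with that codon in capitals, to show the difference. Coordinates are mm10.
Cacna1a, P/Q type, chr8:84611599-84611625, plus strand, exon 35: agcgccacaggaGAAgcgtggcacaac
Cacna1b, N type, chr2:24635213-24635239, minus strand, exon 36: agtgccactgggGAGgcctggcatgag
Cacna1c, L type, chr6:118614050-118614076, minus strand, exon 36: tgtgccaccggaGAGgcctggcaggac
Cacna1d, L type, chr14:30075944-30075970, minus strand, exon 36: tgtgcaacagggGAAgcctggcaggag
Cacna1e, R type, chr1:154425975-154426001, minus strand, exon 37: agtgccacggggGAGgcttggcaggag
Cacna1g, T type, chr11:94416415-94416441, minus strand, exon 32: gtctccactggtGACaactggaatggt
Cacna1h, T type, chr17:25377771-25377797, minus strand, exon 31: gtgtccactgggGACaactggaatggg
Cacna1i, T type, chr15:80388485-80388511, plus strand, exon 31: gtctccacaggcGATaactggaatggg

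The codons are GAA or GAG, for glutamate, in the 5 genes of P/Q, N, L and R type and GAC or GAT, for aspartate, in the 3 T type genes. Over whole coding sequences the members fell into the same families. The L type pair Cacna1c and Cacna1d shared 70.5% of 6242 aligned bases, and the T type pair Cacna1h and Cacna1i shared 69.7%. Cacna1e and Cacna1i, from different classes, shared 45%.

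Total counts ran from 1507882 to 2721287 in the 4-AP libraries, against from 2355610 to 3409055 in the NC libraries, and the 8 genes together received between 2328 and 5801 reads per library. Member totals over the 6 libraries ran from 747 reads for Cacna1d to 6048 for Cacna1e. 3 reads of a gene equalled 0.778 to 2.19 CPM (a count scaled to the effective size of its library), far under every member's level. The counts add up all reads of a gene, so circular and linear RNA cannot be told apart in them. Markers of neurons, glia and vessels were detected, as the label brain implies, and the 6 cerebellar markers summed to 12.4 to 40.9 CPM, almost all from Cbln1 (164 reads in all) and Car8 (130). The cerebellar granule cell gene Gabra6 had 0 reads in every library, and the Purkinje cell gene Pcp2 had 5 in all. Hypothalamic markers were near 0 in the NC libraries, at 0.446 to 3.37 CPM summed over 6 genes against 38.2 to 57.7 CPM in the 4-AP libraries, and Oxt, Sim1 and Hcrt had no reads in NC. Striatal markers were low in NC replicate 1 alone, at 60.7 CPM summed over 6 genes, against 445 to 836 CPM in the other 5 libraries. Without that library Cacna1c was at a log2 fold change of 0.52 and Cacna1i at -0.64, close to the values given below for all 6. In bulk tissue, fewer cells of a type and less RNA per cell cannot be told apart.

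The comparison of 4-AP with NC libraries asks whether any class of calcium channel gene differed in the RNase R-treated RNA. None of the 8 genes passed an adjusted p of 0.05 (quasi-likelihood test of edgeR, adjusted by Benjamini-Hochberg over all genes), where 0.843% of tested genes did (38 higher and 58 lower). With total counts as the only scaling that split was 26 higher and 293 lower, and with an offset for GC content and length it was 57 and 57. By unadjusted p under 0.05 there were 2 of 8, beside 13.9% of all tested genes (1578 of 11388). These were Cacna1i on the low side and Cacna1c on the high side. Both passed after adjustment with DESeq2, which called 193 genes against 96 by edgeR, and neither passed with limma-voom or without robust estimation. Both also passed with the replicate number as a block, which called 265 genes, though the numbers were not taken to pair the samples. In Cacna1i and Cacna1e all 3 4-AP libraries lay below all 3 NC libraries, as in 10.4% of tested genes, and in Cacna1c all 3 lay above, as in 8.36%. The median log2 fold change of the 8 was -0.12, with 5 below 0, beside a median of -0.008 and 51.0% below 0 over all tested genes. With the GC and length offset the median of the 8 was 0.01.

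**Figure D1:**
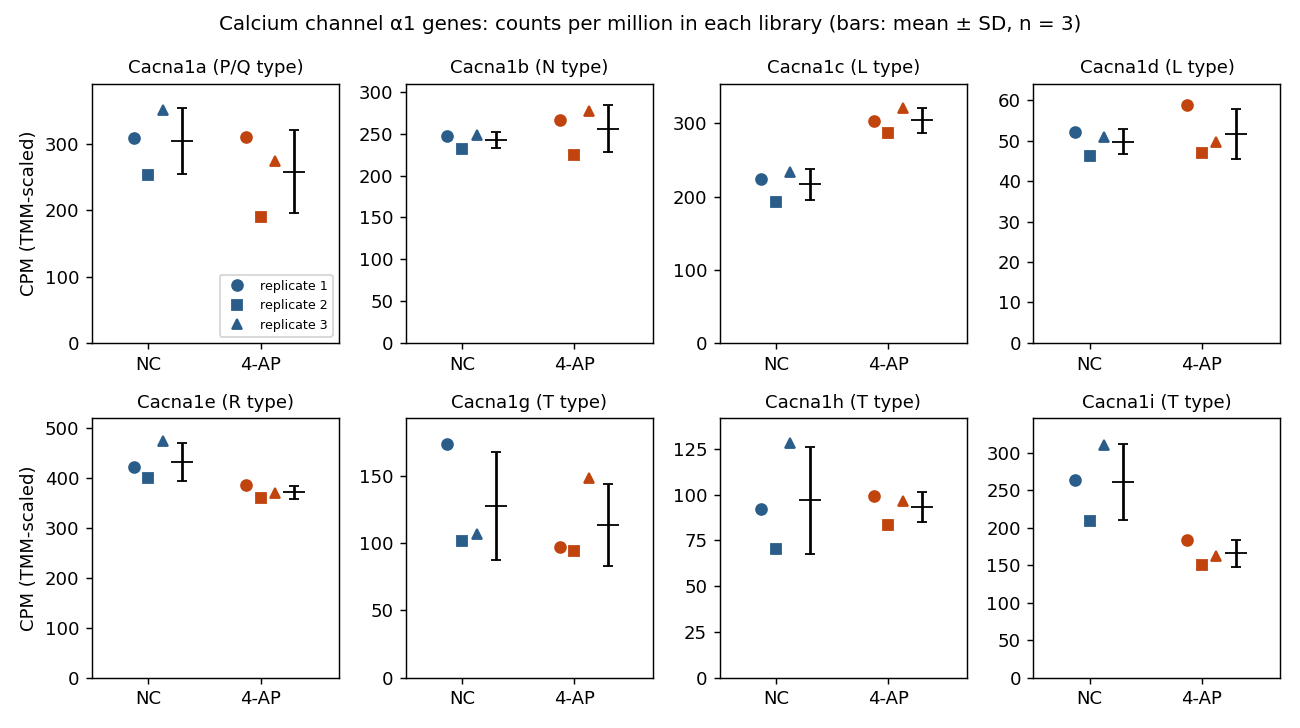
CPM (scaled read counts) of the 8 alpha1 genes in each NC (blue) and 4-AP (orange) library, with the marker shape giving the replicate number and the black bar the mean ± SD of 3 libraries. The groups are apart in Cacna1c, Cacna1e and Cacna1i and overlap in the other 5 panels; each vertical axis starts at 0 and has its own scale.

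The P/Q type gene Cacna1a (chromosome 8, 84388440 to 84640246, plus strand) supplies the main calcium channel of fast central synapses. Its level was 312, 189 and 275 CPM in 4-AP replicates 1, 2 and 3 and 309, 253 and 352 CPM in NC replicates 1, 2 and 3. The groups overlapped, with 4-AP replicate 2 the lowest of the 6 libraries and NC replicate 3 the highest. The log2 fold change was -0.24 (SE 0.17; edgeR adjusted p = 0.597), and it came to -0.03 without 4-AP replicate 2.

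The N type gene Cacna1b (chromosome 2, 24603887 to 24763152, minus strand) supplies the other main presynaptic channel. It had 266, 224 and 278 CPM in the 4-AP libraries, against 247, 232 and 249 CPM in the NC libraries. Its groups overlapped and its NC libraries were the most even of any member. The log2 fold change was 0.08 with a 95% interval from -0.22 to 0.37, so a difference of up to that size in either direction was within the error of 3 libraries a group.

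Of the L type genes, Cacna1c (chromosome 6, 118587240 to 119196418, minus strand) encodes the predominant L type subunit of brain and heart. It stood at 304, 287 and 322 CPM in the 4-AP libraries against 223, 193 and 234 CPM in the NC libraries. The lowest 4-AP library was above the highest NC library. The means were 304 ± 17.2 and 217 ± 21.4 CPM (SD, n = 3 each), and the log2 fold change was 0.49 (SE 0.14; edgeR adjusted p = 0.0937). DESeq2 gave 0.51 with an adjusted p of 0.0288, and over all 18 alternative settings and left-out libraries the gene passed in 4. It was positive in all 18, from 0.28 with total counts as the only scaling to 0.56 without 4-AP replicate 2. Total-count scaling moved the median of all genes to -0.22, and relative to that median Cacna1c was at 0.50.

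Cacna1d (chromosome 14, 30039939 to 30491455, minus strand) encodes the L type subunit that opens at more negative voltages and supports pacemaking. It was the member with the fewest reads, at 58.7, 46.8 and 49.7 CPM in the 4-AP libraries, against 52.2, 46.2 and 50.9 CPM in the NC libraries. The groups overlapped, and the log2 fold change was 0.05 (95% interval -0.34 to 0.44). Within each library, which no scaling can alter, there were 5.18, 6.14 and 6.47 reads of Cacna1c per read of Cacna1d in the 4-AP libraries, against 4.28, 4.17 and 4.60 in the NC libraries. The 3 4-AP ratios were above the 3 NC ratios. With Cacna1d nearly level between the groups, the ratio largely repeats the difference in Cacna1c, and it was not tested.

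The R type gene Cacna1e (chromosome 1, 154390731 to 154884501, minus strand) encodes a subunit found in dendrites and terminals. It gave 385, 359 and 370 CPM in the 4-AP libraries, against 421, 400 and 475 CPM in the NC libraries. The groups did not overlap, but the gap between the nearest libraries was small and the log2 fold change of -0.22 (SE 0.13) had an edgeR adjusted p of 0.517.

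Of the T type genes, Cacna1g (chromosome 11, 94408391 to 94474198, minus strand) encodes the subunit of thalamic relay neurons. It had 97.1, 94.0 and 148 CPM in the 4-AP libraries, against 174, 101 and 107 CPM in the NC libraries. In each group 1 library stood well above the other two, 4-AP replicate 3 and NC replicate 1. The log2 fold change was -0.18 (95% interval -0.65 to 0.29), and it changed sign to 0.12 without NC replicate 1. The summed level of 4 thalamic markers was 45.0, 126 and 140 CPM in the 4-AP libraries, against 123, 20.7 and 21.9 CPM in the NC libraries, so both high libraries of Cacna1g were also high in these, as was 4-AP replicate 2. The part of these markers in the level of Cacna1g was not tested.

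Cacna1h (chromosome 17, 25374285 to 25433783, minus strand) encodes a T type subunit of many neurons, including sensory and hippocampal ones. Its levels were 99.1, 83.6 and 96.5 CPM in the 4-AP libraries, all inside the NC range of 92.1, 70.3 and 128 CPM. The log2 fold change was -0.05 (95% interval -0.46 to 0.36), with its sign changing to 0.19 without NC replicate 3, to 0.05 without 4-AP replicate 2 and to 0.10 with an offset for GC content and length.

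Cacna1i (chromosome 15, 80287238 to 80398279, plus strand), whose channel inactivates most slowly of the T type and is prominent in the reticular thalamus, had the smallest p of the 8 genes. It had 184, 150 and 163 CPM in the 4-AP libraries, against 264, 209 and 311 CPM in the NC libraries. The highest 4-AP library was below the lowest NC library, and the NC libraries were the more spread. The means were 166 ± 17.4 and 261 ± 51.2 CPM (SD, n = 3 each), which put the 4-AP level at 63.5% of NC by the fitted fold change. The log2 fold change was -0.66 (SE 0.16; 95% interval -0.99 to -0.32), and its edgeR adjusted p of 0.0548 missed the threshold.

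The call for Cacna1i turned on the procedure. DESeq2 gave an adjusted p of 0.0202 and a filter at 1 CPM in 3 libraries gave 0.0416 by edgeR's test, while limma-voom gave an adjusted p of 0.0921. Over the 18 alternatives Cacna1i passed in 6 and was negative in all 18, from -0.86 with total counts only to -0.50. Total-count scaling moved the median of all genes to -0.22, and relative to that median Cacna1i was at -0.65, as in the main fit. Among the 6 fits that left out 1 library it passed in 1, the fit without NC replicate 2 (-0.78).

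**Figure D2:**
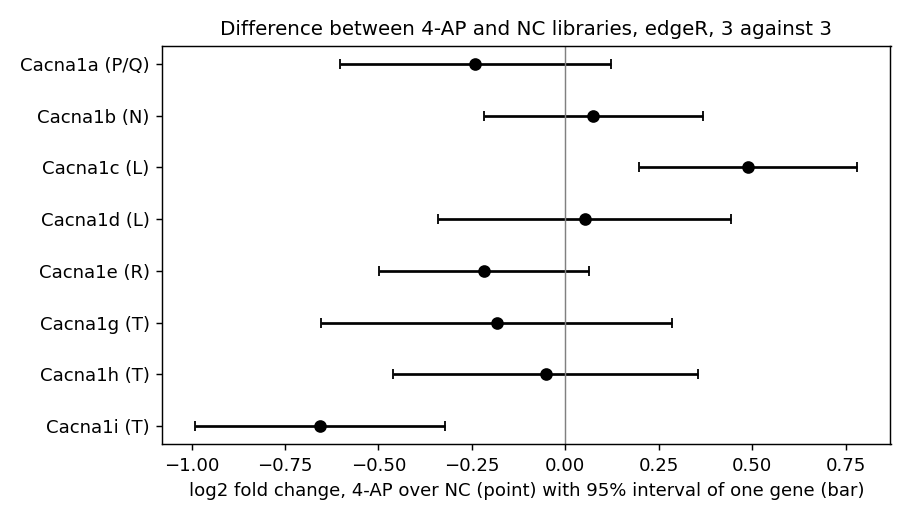
Log2 fold change of each alpha1 gene, 4-AP over NC, with the 95% interval of that single gene from edgeR's fit to 3 against 3 libraries. The interval lies above 0 for Cacna1c and below 0 for Cacna1i, neither of which passed after adjustment over 11388 genes, and spans 0 for the other 6.

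The T type genes did not share 1 pattern. Within a library there were 1.86, 1.79 and 1.69 reads of Cacna1i per read of Cacna1h in the 4-AP libraries, against 2.87, 2.97 and 2.43 in the NC libraries, with no overlap. Per read of Cacna1g there were 1.90, 1.60 and 1.10 reads of Cacna1i in the 4-AP libraries, against 1.52, 2.06 and 2.90 in the NC libraries, which overlapped.

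The 2 members with the smallest p-values lay on opposite sides of 0, and the ratio between them, picked after their values were seen, gives that contrast free of any scaling. Reads of Cacna1c per read of Cacna1i numbered 1.65, 1.91 and 1.97 in the 4-AP libraries, against 0.846, 0.923 and 0.752 in the NC libraries. In reads, not divided by gene length, Cacna1c thus outnumbered Cacna1i in each 4-AP library and was outnumbered by it in each NC library. The ratio of the geometric means was 2.20. Which gene is ahead depends on the length used. Per kilobase of annotated exon, Cacna1i was above Cacna1c in the 4-AP libraries too (18.7, 15.2 and 16.5 against 14.3, 13.6 and 15.2 CPM). No p is given, because the pair was chosen for its difference.

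Levels of different genes were compared as CPM per kilobase of annotated exon. These levels are of RNase R-treated RNA and may not give the order of the genes in untreated RNA. In NC brain the highest were Cacna1a at 26.7 ± 4.35, Cacna1i at 26.5 ± 5.19 and Cacna1b at 24.4 ± 0.929 CPM per kilobase (SD, n = 3 each), whose ranges overlapped. Cacna1e followed at 17.1 ± 1.53, Cacna1g at 12.6 ± 3.97, Cacna1c at 10.2 ± 1.01 and Cacna1h at 9.92 ± 2.99 CPM per kilobase. Each of these 4 overlapped in range with its neighbours among them, but Cacna1e did not reach Cacna1b. Cacna1d was lowest at 3.94 ± 0.251 CPM per kilobase, below every NC value of the other members.

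In 4-AP brain the order was Cacna1b (25.8 CPM per kilobase), Cacna1a (22.6), Cacna1i (16.8), Cacna1e (14.7), Cacna1c (14.4), Cacna1g (11.2), Cacna1h (9.53) and Cacna1d (4.10). Cacna1i stood beside Cacna1a and Cacna1b in NC brain, and in 4-AP brain its highest library (18.7) was below the lowest library of Cacna1b (22.6) but above the lowest of Cacna1a (16.6). The order depends on the length used, since Cacna1c and Cacna1e have 21.2 and 25.2 kilobases of annotated exon, far more than their coding sequence. Per coding base Cacna1e took the largest share of the 8 in NC brain, at 24.5% of their summed level, ahead of Cacna1a at 17.5%.

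Summed by class and per kilobase of exon, the T type genes made up 30.3, 31.9 and 32.4% of the alpha1 level in the 4-AP libraries, against 39.1, 34.1 and 38.1% in the NC libraries. The L type genes made up 14.98, 16.65 and 15.07% in the 4-AP libraries, against 10.7, 11.3 and 10.4% in the NC libraries. Both classes were apart between the groups, T type by -5.57 and L type by 4.74 percentage points. Within them, Cacna1i accounted for -5.91 points and Cacna1c for 4.31 points.

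The N type share was 21.6 ± 0.473% in 4-AP and 18.7 ± 1.80% in NC brain (SD, n = 3 each), also without overlap, although the level of Cacna1b itself overlapped between the groups. The difference of 2.91 points depended on the length used, at 1.75 points without division by length and 1.73 points per coding base. The P/Q type share (18.8 ± 2.77 against 20.3 ± 0.881%) and the R type share (12.4 ± 1.14 against 13.1 ± 0.950%) overlapped. Shares sum to 100% in each library, so a smaller share of 1 class raises the others. These shares describe RNase R-treated RNA, in which circular and linear RNA cannot be told apart, with no test.

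**Figure D3:**
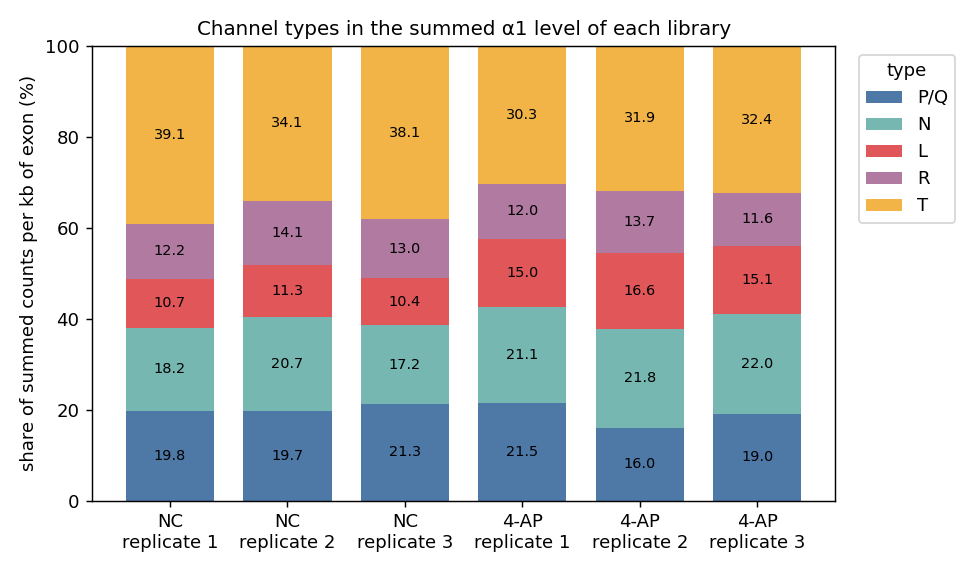
Share of each channel type in the summed alpha1 counts per kilobase of exon, 1 bar per library (percent, printed in each segment). The T type segment is smaller and the L type segment larger in all 3 4-AP libraries than in any NC library.

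Markers of forebrain glutamatergic neurons stood apart between the groups as Cacna1i did. All 6 (Slc17a7, Neurod2, Tbr1, Nrgn, Camk2a and Cux2) had negative log2 fold changes, from -0.96 to -0.59. By edgeR's test 3 of them, Slc17a7, Neurod2 and Nrgn, fell, beside 0.843% of all tested genes called in either direction. The summed level of the 6 was 1298 to 1879 CPM in the 4-AP libraries, against 2373 to 2497 CPM in the NC libraries. None of the 6 was at 0. The 6 pan-neuronal markers summed to 1872 to 2190 CPM and 2220 to 2510 CPM, also apart, with 5 negative, 1 positive and none passing. Of these, Tubb3 (0.08), Map2 (-0.10) and Stmn2 (-0.23) overlapped between the groups. Beside Cacna1c, the 4 microglia markers summed to 403 to 492 CPM in the 4-AP libraries, against 308 to 377 CPM in the NC libraries. Of these 4, 2 were positive, 2 negative and none passed, and most of the sum was Cx3cr1, at means of 374 CPM in 4-AP and 252 CPM in NC. The 5 vessel and smooth muscle markers overlapped, at 52.6 to 99.0 CPM and 58.0 to 92.3 CPM. The hypothalamic sum, given above, was higher in 4-AP brain, mostly from Trh, Avp and Oxt, while Agrp and Sim1 overlapped between the groups. The thalamic, striatal, GABAergic, astrocyte, oligodendrocyte and cerebellar sums overlapped. The part of any of these in the levels of Cacna1i and Cacna1c was not tested, and the marker lists were chosen with earlier results of these data known.

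Across the 6 libraries the genes most like Cacna1i by Pearson's r of log2 CPM were Sema7a, a semaphorin (r = 0.996), Atp2b2, a plasma membrane calcium pump (0.992), and Zfp703 (0.992). Of these, Atp2b2 fell, from 1073 to 664 CPM (log2 -0.69; edgeR adjusted p = 0.0327). Among the members themselves Cacna1e was the most like Cacna1i (r = 0.980). Most like Cacna1c were Gucy1a2, a subunit of the nitric oxide receptor guanylyl cyclase (r = 0.992), Tppp3 (0.992) and Hlcs, the enzyme that attaches biotin to carboxylases (0.988). Hlcs rose, from 51.8 to 112 CPM (log2 1.11; edgeR adjusted p = 0.00683). The r values describe shared patterns over 6 libraries that fall into 2 groups, and no p is given for them. Genes picked for likeness to Cacna1i or Cacna1c share its difference between the groups by that choice. The fall of Atp2b2 and the rise of Hlcs are therefore no separate support for either member.

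The alpha1 subunits work with a set of auxiliary subunits, modulators and anchoring proteins. Of 38 such genes listed, 26 had enough reads to test, 4 had 0 counts in every library (Cacng6, Cacng7, Cacng8 and the release site organiser Rims1), and 3 passed, beside 0.843% of all tested genes: 1 rose and 2 fell. Without NC replicate 3 none of the 26 passed, and leaving out any single 4-AP library left 1 that passed. Their median log2 fold change was -0.17, with 15 of 26 below 0. The muscle and retinal alpha1 genes Cacna1s and Cacna1f, listed here and not among the 8, had 15 and 12 reads in all and were not tested. For genes with 0 counts in every library, these 4 and Gabra6 above, absent RNA and reads lost in the assignment to genes cannot be told apart.

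Nalcn (chromosome 14, 123276634 to 123627144, minus strand), the sodium leak channel with the same plan of 4 domains, rose. It had 376, 386 and 407 CPM in the 4-AP libraries, against 260, 266 and 261 CPM in the NC libraries. The groups were far apart beside their spread, with a log2 fold change of 0.57 (SE 0.13; edgeR adjusted p = 0.0403). Of the 6 fits that left out 1 library it passed in 1, without 4-AP replicate 2, and its log2 fold change stayed between 0.54 and 0.60. With total-count scaling it was at 0.36 (adjusted p = 0.310), and it also missed the threshold with limma-voom and without robust estimation.

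Stac2 (chromosome 11, 98036623 to 98053462, minus strand), an adaptor protein that binds L type channels and slows their inactivation, fell. It had 14.99, 10.36 and 17.54 CPM in the 4-AP libraries, against 44.3, 28.8 and 34.8 CPM in the NC libraries, and its log2 fold change was -1.38 (SE 0.26; edgeR adjusted p = 0.0142). The call was lost without 4-AP replicate 2 (-1.12) or NC replicate 3 (-1.40), and DESeq2 gave no adjusted p for this gene. Pclo (chromosome 5, 14514918 to 14863459, plus strand), the large active zone scaffold Piccolo, fell from 213 ± 19.7 to 132 ± 5.22 CPM (SD, n = 3 each; log2 -0.69, edgeR adjusted p = 0.0239). Its call was lost without NC replicate 3 or any single 4-AP library, with the log2 fold change between -0.75 and -0.63.

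**Figure D4:**
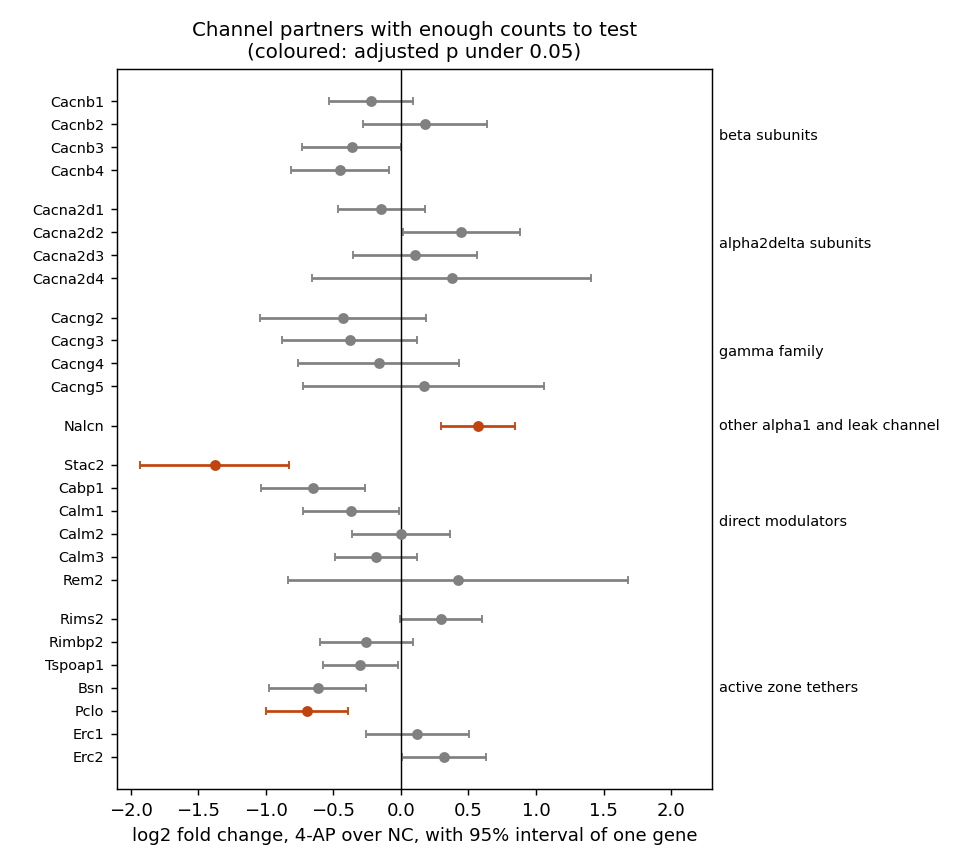
Log2 fold change, 4-AP over NC, of the 26 listed channel partners with enough reads to test, with the 95% interval of each single gene and grouped by role. Nalcn lies above 0 and Stac2 and Pclo below 0 with an adjusted p under 0.05 (coloured); the other 23 are grey.

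None of the 4 beta subunit genes, which bring alpha1 subunits to the membrane and tune their gating, passed. Cacnb4, the gene mutated in lethargic mice, had the smallest p among them (log2 -0.45, SE 0.18), and Cacnb2 was the 1 positive member (0.18, SE 0.22). The beta genes summed to 357 to 400 CPM in the 4-AP libraries, against 415 to 509 CPM in the NC libraries, apart. The 4 alpha2delta genes, which include targets of gabapentin, overlapped as a sum, with Cacna2d2 at 0.45 (SE 0.21) and Cacna2d1 at -0.14 (SE 0.15).

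Of 8 gamma family genes, most of which are better known as partners of glutamate receptors, 4 were tested. Cacng3 was at -0.38 (SE 0.24) and Cacng5 at 0.17 (SE 0.43), and none passed. Among the direct modulators, the small GTPase gene Rem2, whose product inhibits the channels, was at 0.42 (SE 0.58). Erc2, an active zone protein, was at 0.32 (SE 0.15; edgeR adjusted p = 0.344), with its 3 4-AP libraries above its 3 NC libraries.

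**Figure D5:**
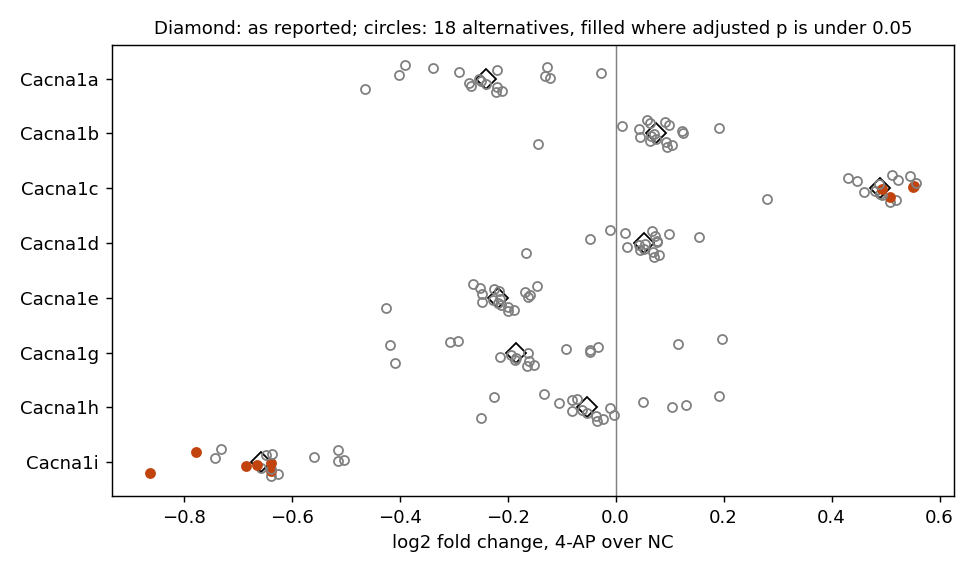
Log2 fold change of each alpha1 gene, 4-AP over NC, as reported (diamond) and under 18 other scalings, tests, filters, offsets and left-out libraries (circles, filled where the adjusted p was under 0.05). Cacna1c stayed above 0 and Cacna1i below 0 throughout, with 4 and 6 filled circles, and Cacna1b, Cacna1d, Cacna1g and Cacna1h fell on both sides of 0.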

How the data were processed

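For each of the 6 samples a table of raw read counts per Ensembl gene was deposited. The submitters' processing notes name STAR 2.5.3a, featureCounts and the build mm10. The sources used here do not give the annotation release, the strand setting or the treatment of multi-mapping reads. Without a strand setting, reads of the genes that overlap 3.81% of the exon bases of Cacna1a, 4.67% of Cacna1d and 1.62% of Cacna1h cannot be told from theirs; the other 5 members had no such overlap.

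Identifiers were matched without version to GENCODE M21 (54809 of 55604), which gave symbols, 1-based mm10 coordinates, exon lengths and transcript sequences; GC content came from the longest transcript. Low genes were removed with filterByExpr (minimum count 10, minimum total 15), and the rest scaled by trimmed mean of M-values (TMM) and tested across all genes with edgeR 4.0.16 in R 4.3.3 (robust quasi-likelihood test, group as the only term, threshold 0.05). Standard errors come from the fold change and its F value, and intervals from the t quantile at the fitted degrees of freedom. Alternatives used DESeq2 1.42.0, limma 3.58.1, other scalings, filters and offsets (loess span 0.5), the replicate number as a block and left-out libraries. The fit was also run on counts simulated from its own dispersions, a check of the procedure that does not bear on single calls here. All pairs of libraries differed by more than sampling noise (lowest chi-square per degree of freedom 7.79), so each was kept as a replicate. Pore loops were found in translated coding sequences as serine or threonine, any residue, the acid, any residue and tryptophan, with a phenylalanine 5 to 9 residues before the acid. Coding sequences were aligned with MAFFT.

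The members and lists were chosen with earlier results of these data known. Named beside the 8 members were partners that passed, the partner with the smallest p per role and direction, and the 3 genes most correlated with the member of smallest p in each direction. One item of the marker lists is not reported here and was left out of the counts and sums.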

Additional observations from a re-analysis of the deposited data

How the results depend on the processing

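The 8 genes kept their direction and their side of the threshold except as follows. With total counts only, Cacna1b (-0.14) and Cacna1d (-0.17) changed sign and Cacna1i passed (-0.86); 1 member and 319 genes were called. DESeq2 called Cacna1c (0.51) and Cacna1i (-0.64), 2 members of 193 genes. Cacna1i passed with no filter on low counts (-0.68; 1 member, 328 genes and 5 partners) and at a CPM above 1 in 3 libraries (-0.66; 1 member). No robust fit gave 55 genes. The GC and length offset called Cacna1c (0.55; 1 member) and turned Cacna1h to 0.10. The replicate block called Cacna1c (0.49, edgeR adjusted p = 0.0475) and Cacna1i (-0.64, edgeR adjusted p = 0.0215), 2 members of 265 genes; with that offset as well it called Cacna1c (0.55; 1 member of 149 genes) and put Cacna1h at 0.13. Same-numbered libraries correlated in their deviations at -0.002, 0.113 and 0.0245, and not every library correlated best with its own number, so the numbers were not taken to pair the samples, although the series text calls the tissue paired without saying by what. Without replicate 1 of both groups (chosen after seeing the data), Cacna1d was at -0.0095 and Cacna1g at 0.20, and 0 partners were called.

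Leaving out 1 library gave ranges of -0.048 to 0.15 for Cacna1d, -0.42 to 0.12 for Cacna1g, -0.23 to 0.19 for Cacna1h and -0.78 to -0.51 for Cacna1i, 0 to 1 members, 0 to 3 partners and 26 to 159 genes called. The L type share differed by 5.62 points with the longest transcript, 6.69 without division by length and 6.79 per coding base, and the R type share by -1.92 and -1.83 points with these last settings. With 3 libraries a group, Cacna1d had the fewest reads of the members, at 747 in all, while the standard error was largest for Cacna1g (0.22, against 0.19 for Cacna1d).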
